A study of Homo sapiens with 11 samples.

Results

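The posterior HOXA genes and HOTTIP are the genes at the 5′ end of the HOXA cluster on human chromosome 7, and here they comprise HOXA9, HOXA10, HOXA11 and HOXA13 with the non-coding genes HOXA11-AS and HOTTIP. They were taken by symbol from a table of raw fragment counts, and they make up 6 of its 38557 annotated genes. RNA sequencing had been performed in MOLM-13, an established line of human acute myeloid leukemia that carries a rearranged KMT2A gene. Cells had been kept for 72 h in the solvent DMSO (4 libraries), in MI-503 at 1 µM (4 libraries) or in the same dose of MI-503 plus PR-957 at 100 nM (3 libraries, replicates 1, 2 and 4, called the combination). MI-503 blocks Menin, the protein that tethers KMT2A to chromatin, and PR-957 blocks PSMB8, a catalytic subunit of the immunoproteasome. The study asked whether adding the immunoproteasome inhibitor deepens the repression of KMT2A target genes. The effect of PR-957 could be read only in cells that also had MI-503, because no library with PR-957 alone was analysed here. All groups come from 1 cell line, and the labels do not state that the replicates are separate cultures, so that the p-values measure the spread between these libraries.

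HOX genes encode homeodomain transcription factors that are switched on in the order of their position along a cluster. In blood, HOXA9 and HOXA10 are active in stem and progenitor cells and are shut down as myeloid cells mature, and KMT2A fusion proteins bound through Menin keep them active in leukemia. HOXA9 acts together with the cofactors MEIS1 and PBX3, and HOTTIP, transcribed from the far end of the cluster, is known as a long non-coding RNA that binds WDR5 and brings KMT2A complexes to the 5′ HOXA genes.

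The promoter sequences of 4 members are shown because 2 pairs of members start back to back, so that each pair has a common stretch of promoter, and HOXA9 stands beside them as the member best known in leukemia. HOXA13 (chr7:27194364-27200091, minus strand) and HOTTIP (chr7:27200421-27207259, plus strand) have 329 bases between their first exons, and their promoter windows overlap by 171 bases. HOXA11 (chr7:27181157-27185232, minus strand) and HOXA11-AS (chr7:27185408-27189293, plus strand) have 175 bases between them, and their windows overlap by 275 bases, so that HOXA11 stands for both. Each window runs 5′ to 3′ on the strand of its gene, from RefSeq on GRCh38.p14, and capitals mark the CCAAT box (CCAAT, or ATTGG when it lies on the other strand), a motif bound by the factor NF-Y in many promoters.
HOXA9 (chr7:27165488-27165787, minus strand): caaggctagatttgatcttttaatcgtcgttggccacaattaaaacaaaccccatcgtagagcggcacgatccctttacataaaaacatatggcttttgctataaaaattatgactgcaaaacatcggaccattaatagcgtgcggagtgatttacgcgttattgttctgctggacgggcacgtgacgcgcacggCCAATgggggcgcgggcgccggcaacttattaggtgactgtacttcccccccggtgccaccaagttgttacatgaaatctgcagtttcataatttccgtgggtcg
HOXA11 (chr7:27185183-27185482, minus strand): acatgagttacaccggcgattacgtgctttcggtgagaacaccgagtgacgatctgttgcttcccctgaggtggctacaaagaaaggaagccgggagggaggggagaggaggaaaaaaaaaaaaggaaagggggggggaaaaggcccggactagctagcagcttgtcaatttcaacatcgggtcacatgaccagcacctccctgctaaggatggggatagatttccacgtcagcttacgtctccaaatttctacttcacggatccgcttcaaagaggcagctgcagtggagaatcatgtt
HOXA13 (chr7:27200042-27200341, minus strand): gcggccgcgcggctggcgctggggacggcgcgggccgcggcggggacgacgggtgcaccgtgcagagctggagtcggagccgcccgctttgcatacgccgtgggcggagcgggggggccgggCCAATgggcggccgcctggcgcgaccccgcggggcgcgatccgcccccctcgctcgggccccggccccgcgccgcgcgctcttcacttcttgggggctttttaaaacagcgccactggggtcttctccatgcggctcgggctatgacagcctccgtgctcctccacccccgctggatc
HOTTIP (chr7:27200171-27200470, plus strand): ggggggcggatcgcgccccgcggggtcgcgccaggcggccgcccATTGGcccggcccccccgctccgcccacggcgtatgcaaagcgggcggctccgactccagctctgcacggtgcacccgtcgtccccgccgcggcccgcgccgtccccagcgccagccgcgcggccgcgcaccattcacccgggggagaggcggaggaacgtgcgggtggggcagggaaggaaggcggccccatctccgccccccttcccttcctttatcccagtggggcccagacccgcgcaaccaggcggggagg

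The capitals in the HOXA13 and HOTTIP windows are the same CCAAT box, which begins 128 bases before the start of HOXA13 and 206 bases before that of HOTTIP. In HOXA9 the box begins 55 bases before the start. HOXA10 has 2 annotated starts with a window each, and a box begins 249 bases before the outer start and 54 bases before the inner start. HOXA11 and HOXA11-AS hold no CCAAT in these windows. Of 35116 promoter windows of this length, 34.6% hold CCAAT on either strand. TATAAA, searched on both strands, was found once in HOXA9 and once in each HOXA10 window (11.5% of all windows), and the E-box CACGTG once in HOXA9 (7.26% of all windows). None of these motif matches overlap another. The HOXA13 and HOTTIP windows are rich in CpG, with 44 and 41 CpG and a GC content of 76.3% and 78.0%, whereas the HOXA11 and HOXA11-AS windows hold 13 and 12. The median window holds 14 CpG at 58.7% GC. These matches describe the sequence alone.

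The libraries held 18.9 to 41.2 M counted fragments, and 14683 genes were tested. Combination replicate 1 stood apart from replicates 2 and 4, with a chi-square statistic of 19.4 and 33.3 per degree of freedom over genes, against 4.59 between the latter and 1.71 to 5.97 within the other groups. All 6 members were higher in that library than in the mean of replicates 2 and 4, by 0.13 (HOTTIP) to 0.46 (HOXA11) on the log2 scale, and the middle 80% of tested genes lay between −0.35 and 0.37. For the members, values are therefore given with and without this library where that changes a call. The myeloid blast markers PTPRC, CD33, SPI1, MPO, CEBPA and FLT3 were all detected and summed to 1569 to 1621 CPM (fragments per 1000000 counted, on scaled library totals) in DMSO, 1773 to 1924 in MI-503 and 1686 to 2019 in the combination. CEBPA was the largest of them (735 to 803 CPM in DMSO), and FLT3 went the other way, at 309 to 333, 228 to 233 and 174 to 219 CPM in these groups. The T cell markers summed to at most 0.184 CPM and the erythroid markers to at most 0.301 CPM, while the B cell markers summed to 1.64 to 3.88 CPM and the epithelial markers to 5.99 to 10.9 CPM. The epithelial sum was nearly all KRT8 (5.88 to 10.88 CPM), and MS4A1 of the B cell markers had no count.

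**Figure D1:**
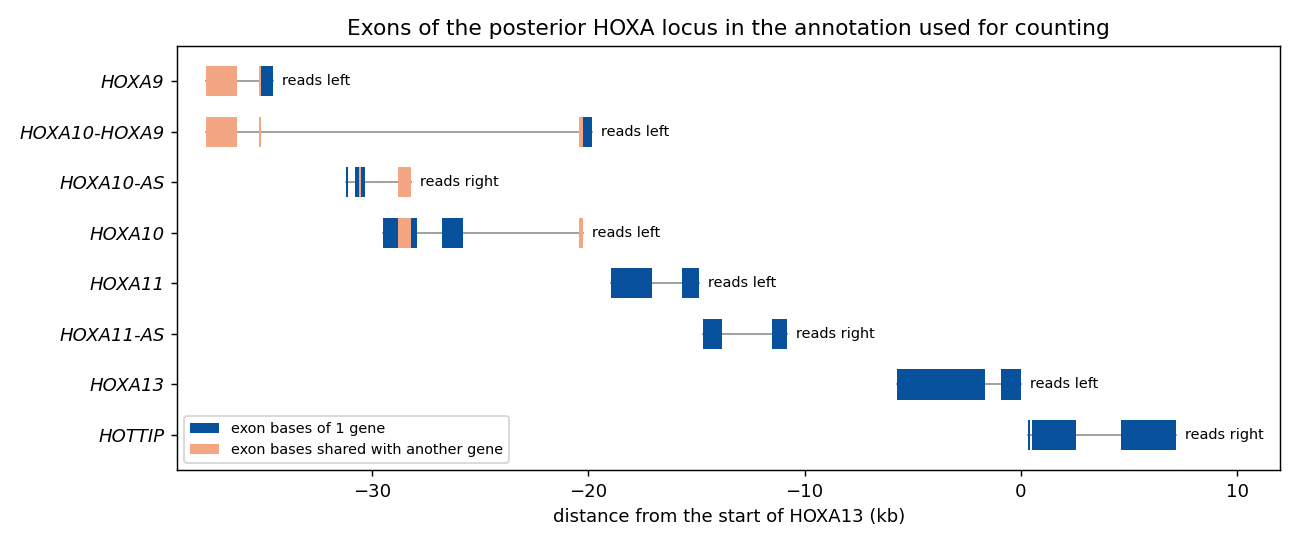
Exons of the members and of the 2 genes that share exon bases with them, drawn to scale by distance in kb from the start of HOXA13, with shared bases in a lighter color. HOXA9 shares 72.4% of its exon bases and HOXA10 29.9%, whereas HOXA11, HOXA11-AS, HOXA13 and HOTTIP share none.

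How well a member was measured depended on how much of its exons is its own, because fragments lying on exons of more than 1 gene had been left out of the counts. HOXA9 (chr7:27162438-27165537, minus strand) shares 72.4% of its 2064 exon bases with the read-through gene HOXA10-HOXA9, so that only the remaining 570 bases, all in the first exon, are its own. HOXA10 (chr7:27170605-27179861, minus strand) shares 29.9% of 2757 bases with HOXA10-HOXA9 and with the antisense gene HOXA10-AS. The other members share no exon bases, as the exon map of the locus shows. Counting had ignored strand, so a fragment in a region transcribed from both strands could not be assigned by its direction. Counts per library ran from 83 (HOTTIP in combination replicate 2) to 3121 (HOXA13 in combination replicate 1), and at 83 counts the counting error alone is 10.98%.

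All 6 members were expressed in DMSO. Levels were compared between genes as CPM per kb of unshared exon, where HOXA9 stood at 43.3 ± 3.56 and HOXA10 at 38.2 ± 1.95 (SD, n = 4), with overlapping libraries. HOXA11 (17.7 ± 0.968) and HOXA13 (17.2 ± 0.494) followed and overlapped each other, at a level 2.16-fold below that of HOXA10. HOXA11-AS stood at 9.53 ± 0.552 and HOTTIP lowest at 2.17 ± 0.158, with no overlap to its neighbor in this order. In MI-503 the order was HOXA10 (36.5), HOXA9 (33.7), HOXA13 (17.6), HOXA11 (12.7), HOXA11-AS (8.30) and HOTTIP (1.57), and the libraries of HOXA10 and HOXA9 again overlapped. In the combination it was HOXA9 (36.0), HOXA10 (25.5), HOXA13 (12.5), HOXA11 (11.6), HOXA11-AS (6.65) and HOTTIP (1.05), with overlap between HOXA13 and HOXA11. Per kb of all its exon bases HOXA9 comes to 11.9, 9.31 and 9.93 in the 3 groups, below HOXA10 (26.8, 25.6 and 17.9), HOXA13 and HOXA11. That length takes in the 72.4% of HOXA9 bases whose fragments were left out of the counts. It therefore understates HOXA9 by construction, and HOXA10 to a lesser degree.

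**Figure D2:**
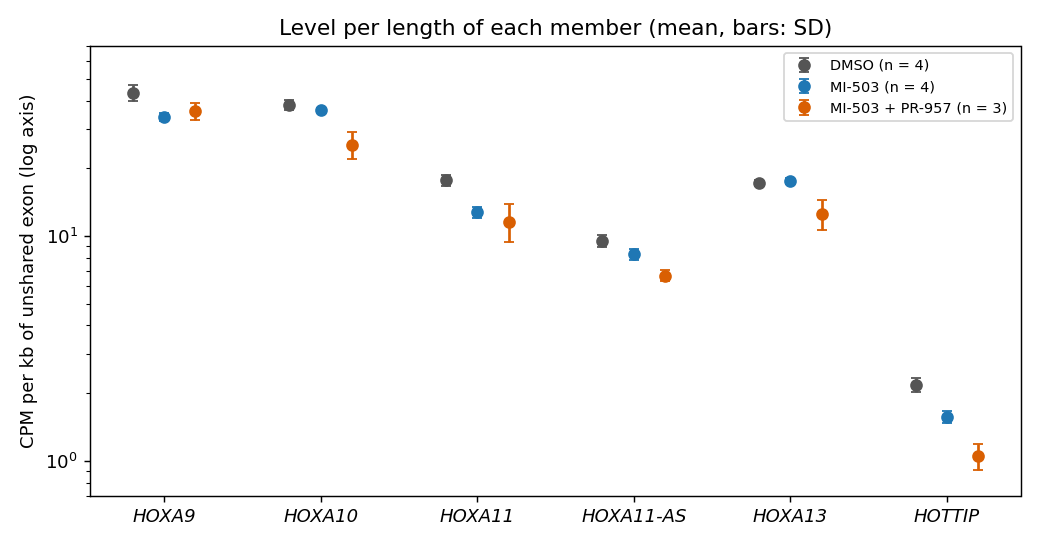
Level of each member in CPM per kb of exon not shared with another gene, on a log axis, as the mean with SD of 4 DMSO, 4 MI-503 and 3 combination libraries. HOTTIP lies lowest in each group, at 2.17 in DMSO, 1.57 in MI-503 and 1.05 in the combination.

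MI-503 alone lowered some members and not others. HOXA9, HOXA11, HOXA11-AS and HOTTIP fell, by 0.20 to 0.47 on the log2 scale, whereas HOXA10 and HOXA13 were not called. In the comparison of MI-503 with DMSO, 4 of 6 members were called lower and 0 higher, while 29.3% of the 14683 tested genes were called lower (edgeR's quasi-likelihood test, adjusted p under 0.05). The median log2 fold change was −0.28 over the members and −0.03 over all tested genes. In bulk RNA such a difference may reflect fewer cells that express a gene or less RNA per cell, which cannot be told apart here.

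HOXA9, the homeodomain factor most tied to KMT2A leukemia, was measured at 23.2, 26.01, 26.8 and 22.6 CPM in DMSO and at 20.3, 18.5, 19.1 and 19.0 CPM in MI-503. Every MI-503 library lay below every DMSO library. On the log2 scale HOXA9 fell by 0.36 (SE 0.0703, 95% interval −0.51 to −0.21, edgeR adjusted p = 0.000393). HOXA11, a factor of limb, kidney and uterus development, stood at 46.5, 51.0, 45.9 and 45.4 CPM in DMSO and at 36.0, 34.4, 34.5 and 31.2 CPM in MI-503, again with no overlap. HOXA11 fell by 0.47 (SE 0.0847, edgeR adjusted p = 0.000178). Its divergent partner HOXA11-AS, a non-coding RNA, went from 15.7, 15.1, 14.5 and 13.7 CPM to 13.9, 12.7, 12.1 and 12.7 CPM, and these groups overlapped. HOXA11-AS fell by 0.20 (SE 0.0725, edgeR adjusted p = 0.0265), a call lost in 13 of 19 alternative analyses (adjusted p up to 0.124), among them those that left out any 1 combination library, replicate 1 or 2 of DMSO, or replicate 2, 3 or 4 of MI-503.

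HOTTIP held 9.25, 10.1, 10.2 and 11.1 CPM in the DMSO libraries and 6.80, 7.15, 7.51 and 7.78 CPM in the MI-503 libraries. The groups did not overlap, and HOTTIP fell by 0.47 (SE 0.0938, 95% interval −0.67 to −0.27, edgeR adjusted p = 0.000487). HOXA13, the last coding gene of the cluster and known from limb and hindgut patterning, starts next to HOTTIP and had values of 87.2, 83.3, 85.9 and 89.2 CPM in DMSO and 90.8, 90.5, 86.6 and 84.5 CPM in MI-503. These overlapped, and the log2 fold change was 0.03 with an interval of −0.11 to 0.17 (edgeR adjusted p = 0.748). HOXA10, which keeps myeloid differentiation genes repressed, had 76.8, 76.9, 69.0 and 72.7 CPM in DMSO and 71.2, 71.4, 70.6 and 68.8 CPM in MI-503. Its groups overlapped too, with a log2 fold change of −0.07 and an interval of −0.20 to 0.07 (edgeR adjusted p = 0.392). The libraries of the compared groups did not overlap for 3 members, all lower, a pattern that 29.1% of tested genes showed.

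**Figure D3:**
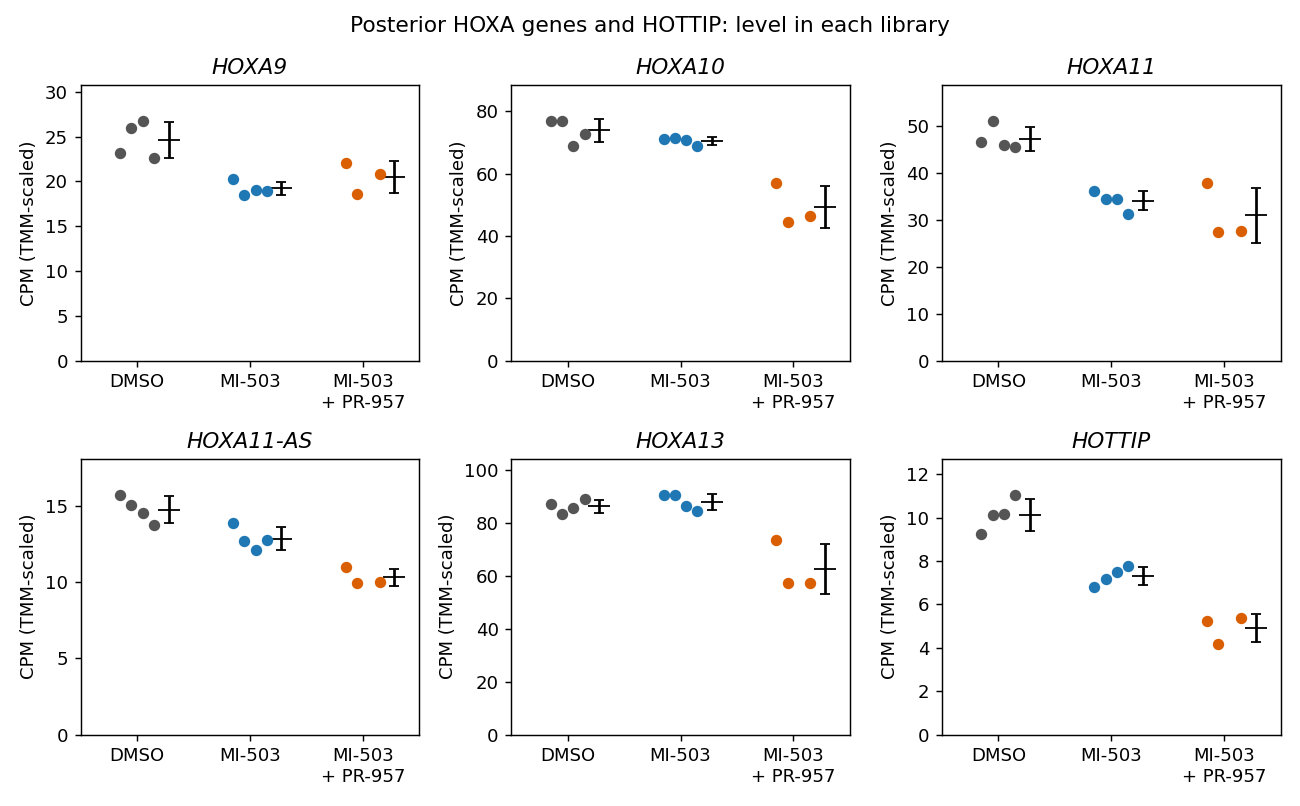
CPM of each member in each library (points), on TMM-scaled totals, with the mean and SD of the group beside the points (DMSO and MI-503 n = 4, combination n = 3). HOXA9, HOXA11 and HOTTIP separate MI-503 from DMSO, HOXA10 and HOXA13 overlap between these groups, and all 6 members lie below DMSO in the combination.

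With PR-957 added, every member was below DMSO. In the combination against DMSO, 6 of 6 members were called lower, when 32.8% of tested genes were called lower (edgeR's quasi-likelihood test), and for all 6 the libraries did not overlap (31.2% of tested genes). The median log2 fold change was −0.54 over the members and 0.01 over all tested genes. HOTTIP showed the largest difference of the members. Its combination libraries held 5.22, 4.16 and 5.36 CPM (replicates 1, 2 and 4), and its level was 0.492 of that in DMSO, which is −1.02 on the log2 scale (SE 0.106, 95% interval −1.25 to −0.80, edgeR adjusted p = 1.99e-07).

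HOXA10 had 56.9, 44.7 and 46.3 CPM in the combination, all below the lowest DMSO library. It fell by 0.57 (SE 0.0691, edgeR adjusted p = 1.29e-06). HOXA11 had 37.8, 27.4 and 27.6 CPM, with replicate 1 well above the others, and fell by 0.59 (SE 0.0920, edgeR adjusted p = 2.29e-05). HOXA13 stood at 73.7, 57.2 and 57.4 CPM, again highest in replicate 1 and below all DMSO libraries. Its log2 fold change was −0.45 (SE 0.0715, edgeR adjusted p = 2.8e-05). HOXA11-AS had 10.98, 9.93 and 10.0 CPM and fell by 0.51 (edgeR adjusted p = 2.3e-05). HOXA9, with 22.1, 18.6 and 20.9 CPM, fell by 0.26 (SE 0.0751, edgeR adjusted p = 0.0066), the smallest difference of the 6. Without combination replicate 1 all 6 members were still called lower, by 0.30 (HOXA9) to 1.05 (HOTTIP).

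The direct comparison of the combination with MI-503 measures what PR-957 adds. Here HOXA10, HOXA11-AS, HOXA13 and HOTTIP were called lower, which is 4 of 6 members against 23.8% of tested genes (edgeR's quasi-likelihood test), and for these 4 the libraries did not overlap (23.7% of tested genes). The median log2 fold change was −0.40 over the members and 0.00406 over all tested genes. HOXA10 fell by 0.51 (95% interval −0.65 to −0.36, edgeR adjusted p = 1.43e-05) and HOXA13 by 0.48 (−0.63 to −0.33, edgeR adjusted p = 3.39e-05). These are the 2 members that were not called in MI-503 against DMSO. HOTTIP dropped by 0.56 (−0.78 to −0.33, edgeR adjusted p = 0.000406) and HOXA11-AS by 0.31 (−0.48 to −0.14, edgeR adjusted p = 0.00405).

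HOXA9 was not called when PR-957 was added to MI-503: its log2 fold change was 0.10, with an interval of −0.06 to 0.26 (edgeR adjusted p = 0.281), and its libraries overlapped. HOXA11 was not called either, at −0.12 with an interval of −0.32 to 0.07 (edgeR adjusted p = 0.299). That result rests on combination replicate 1, since without it HOXA11 fell by 0.33 (edgeR adjusted p = 0.000203). Leaving out the same library moved HOXA10 to −0.66 and HOXA13 to −0.65, and HOXA9 to 0.02 (edgeR adjusted p = 0.858). The contrasts share libraries, so their values stand side by side here and were not correlated.

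Whether members moved apart was tested on ratios of their counts within a library, which do not depend on library scaling. For 100 fragments of HOXA13 there were 10.6, 12.1, 11.8 and 12.4 fragments of HOTTIP in DMSO, 7.50, 7.90, 8.68 and 9.20 in MI-503 and 7.08, 7.27 and 9.34 in the combination. The ratio of this head-to-head pair was thus lower in each MI-503 and each combination library than in any DMSO library, and the treated groups overlapped. Its log2 difference from DMSO was −0.50 in MI-503 and −0.58 in the combination (two-sided exact permutation test, p = 0.0286 for both, the smallest these group sizes allow), and between the treated groups it was −0.08 (exact p = 0.543). For 100 fragments of HOXA9 there were 258 to 331 of HOXA10 in DMSO, 351 to 385 in MI-503 and 222 to 258 in the combination. MI-503 lay above both other groups with no overlap, by 0.29 over DMSO, while the combination lay 0.61 below MI-503 (exact permutation p = 0.0286 for both).

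HOXA13 against HOXA9 had the same order of groups. There were 320 to 394 fragments of HOXA13 for 100 of HOXA9 in DMSO, 446 to 488 in MI-503 and 275 to 334 in the combination, with log2 differences of 0.38 for MI-503 against DMSO and −0.59 for the combination against MI-503 (exact permutation p = 0.0286 for both). HOXA11 against HOXA9 differed by −0.12 in MI-503 (exact permutation p = 0.114) and by −0.36 in the combination (exact permutation p = 0.0571) from DMSO. HOXA11-AS against HOXA11, the other head-to-head pair, was higher in each MI-503 library, with 35.1 to 40.8 fragments of HOXA11-AS for 100 of HOXA11, than in any DMSO library, with 29.6 to 33.8 (log2 difference 0.27, exact permutation p = 0.0286). The combination had 29.1 to 36.3 and overlapped both. None of the 15 ratio tests passed after Benjamini-Hochberg adjustment, where the smallest adjusted p was 0.0612, and groups of this size could not have given a raw p below 0.0286.

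**Figure D4:**
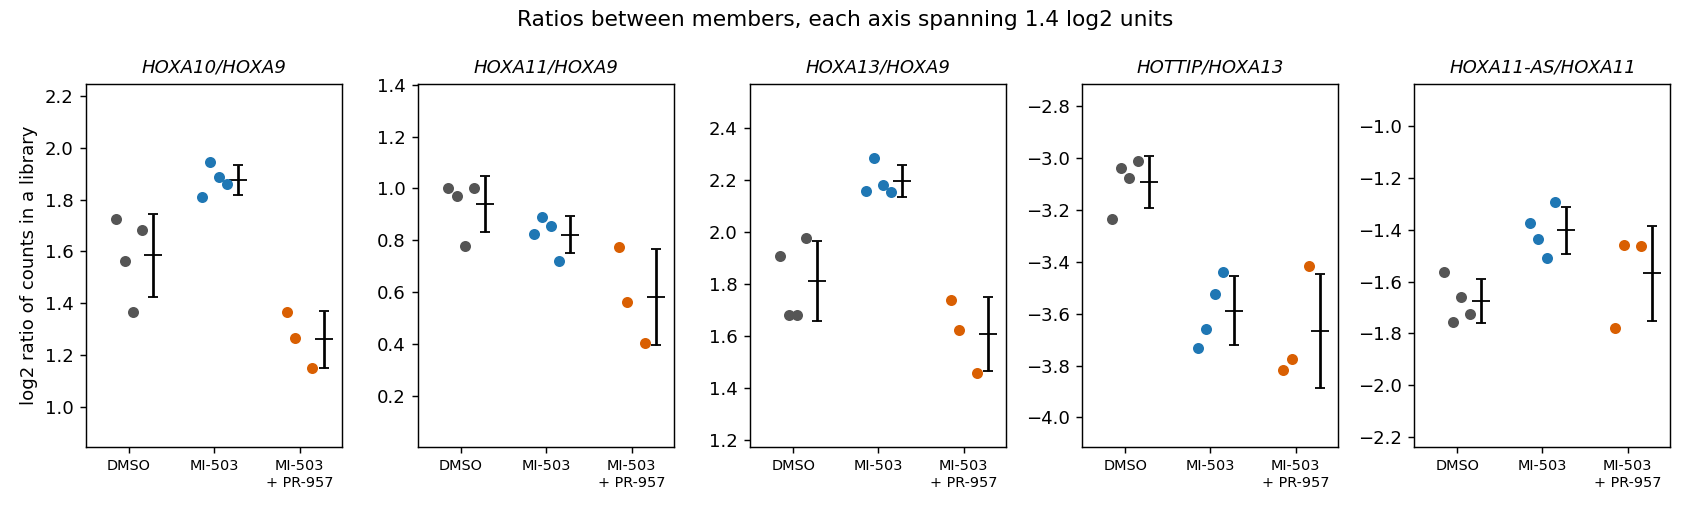
Log2 ratio of the counts of 2 members in each library (points) with the mean and SD of the group, on axes that each span the same number of log2 units (DMSO and MI-503 n = 4, combination n = 3). HOTTIP/HOXA13 lies lower in both treated groups than in DMSO, by 0.50 and 0.58, whereas HOXA10/HOXA9 and HOXA13/HOXA9 are highest in MI-503.

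Other genes of the HOXA cluster give the setting of these values. Of 13 such genes listed, 11 were tested. In MI-503 against DMSO 8 were called lower, beside 29.3% of all tested genes, and 0 higher. Their median log2 fold change over the 11 was −0.66. The anterior coding genes HOXA2 to HOXA7, which pattern the hindbrain and upper trunk, were among those called. The call of HOXA4 (−0.78, edgeR adjusted p = 0.0157) did not hold when replicate 2 of DMSO, or replicate 3 or 4 of MI-503, was left out (adjusted p up to 0.0563), and the count of 8 was 6 to 9 over the alternative analyses. That of the antisense gene HOXA-AS2 (−0.77, edgeR adjusted p = 0.0301) was lost in 5 alternatives (adjusted p up to 0.0897). HOXA10-AS, transcribed from the strand opposite to HOXA10, fell from 8.13 ± 0.933 to 5.12 ± 0.442 CPM (SD, n = 4 each), a log2 fold change of −0.68 (edgeR adjusted p = 6.23e-05), while HOXA10 itself was not called. HOXA10-AS shares 59.6% of its 1161 exon bases, and fragments on these were left out. Its remaining 469 bases lie beyond the annotated end of HOXA10, opposite an intron of HOXA10-HOXA9. Counting ignored strand, so RNA from the opposite strand there could still be among its counts. HOXA10-HOXA9 was not called in any comparison of all libraries and held 212 counts over the 11 libraries. It was called lower in the combination without its replicate 1, by 1.34 against DMSO (edgeR adjusted p = 0.00594) and by 1.19 against MI-503 (edgeR adjusted p = 0.0184).

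Adding PR-957 gave few calls among these genes. Of all tested genes, 23.8% were called lower and 23.6% higher in the combination against MI-503. Here 0 of the 11 were called lower and 1 higher, beside 4 of 6 posterior members called lower. These counts are not like for like, since the SE was 0.124 to 0.381 for the 11 genes and 0.0689 to 0.107 for the members. Among genes not called, HOXA2 (−0.36) and HOXA3 (−0.27) fell about as far as HOXA11-AS, which was called at −0.31. HOXA5 (0.27) and HOXA6 (0.31) lay about as far above 0, and the median over the 11 was −0.03. The gene called higher is HOTAIRM1, a non-coding RNA of myeloid maturation, which rose from 2.34 ± 0.385 to 3.77 ± 0.756 CPM (log2 fold change 0.70, edgeR adjusted p = 0.00468). The count of 0 was 1 with RLE scaling factors, with no filter, with a stricter filter, with a replicate block, and without replicate 2 of DMSO or replicate 2 of MI-503. HOXA10-AS (−0.30, edgeR adjusted p = 0.0552) was called lower in all of these but the fit with no filter. Without combination replicate 1, 3 of these genes were called lower, among them HOXA3, at −0.72 (edgeR adjusted p = 1.35e-05) in place of −0.27. Without combination replicate 4 the count of higher genes was 3. Against DMSO the combination had 7 of the 11 called lower and 1 higher, with a median of −0.80. Of all tested genes 32.8% were called lower there. Among the 7, the antisense gene HOXA-AS2 (edgeR adjusted p = 0.0273) was not called without combination replicate 1 (edgeR adjusted p = 0.0588). It lost its call in 5 alternatives in all, among them DESeq2 and without replicate 1 or 4 of DMSO. HOXA4 (−0.81, edgeR adjusted p = 0.0149) was not called without combination replicate 2 or 4 (adjusted p up to 0.0665). Whether the posterior members differ as a set from the rest of the cluster was not tested.

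**Figure D5:**
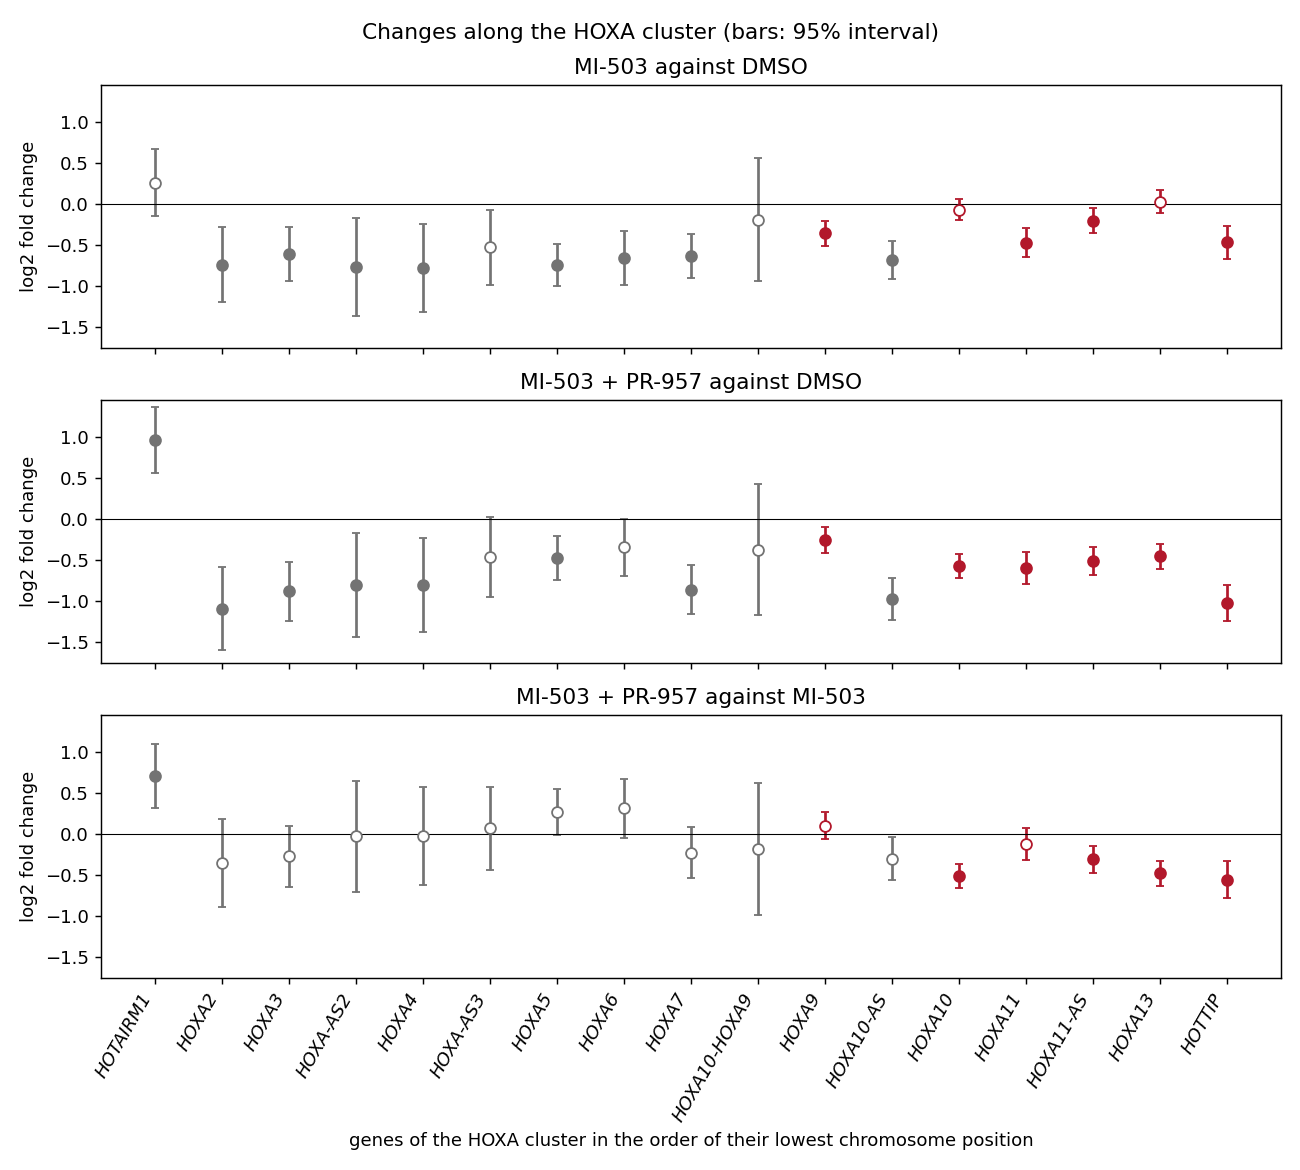
Log2 fold change with 95% interval for 11 tested genes of the HOXA cluster and the 6 posterior members, in the order of their lowest position on the chromosome, in 3 comparisons, with the members in red and filled points for genes called at an adjusted p under 0.05. In the combination against MI-503, HOTAIRM1 at the left lies above 0, at 0.70, and HOXA10, HOXA11-AS, HOXA13 and HOTTIP at the right lie below it.

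Posterior HOX genes outside the HOXA cluster were mostly silent. Of 13 such genes with HOTAIR among them, 6 had no count in any library and 2 were tested, HOXC9 and HOXC10. HOXC10, a posterior factor of lumbar spinal cord and limb, rose from 11.5 ± 0.746 CPM in DMSO to 18.8 ± 1.10 CPM in MI-503 (SD, n = 4 each, log2 fold change 0.71, edgeR adjusted p = 8.65e-07). In the combination it stood at 10.9 ± 0.998 CPM (n = 3), lower than in MI-503 by a log2 fold change of −0.79 (edgeR adjusted p = 9.07e-07) and different from DMSO by −0.07, which was not called (edgeR adjusted p = 0.467). HOXC10 was thus higher in MI-503, where HOXA9, HOXA11 and HOTTIP were lower. HOXC9 was not called, with 3.47, 3.08 and 2.82 CPM in DMSO, MI-503 and the combination. In the combination against DMSO its log2 fold change was −0.27 (edgeR adjusted p = 0.104), and it was called lower without combination replicate 1 (−0.39, edgeR adjusted p = 0.0445) and without replicate 1 of DMSO. HOXB9 lay below the filter on low counts, with 6, 8, 3 and 8 counts in the DMSO libraries, 2, 1, 0 and 0 in MI-503 and 0, 1 and 1 in the combination. These counts, chosen after the values were seen, did not overlap between DMSO and either treated group. With no filter HOXB9 was called lower against DMSO in MI-503 (edgeR adjusted p = 0.000717) and in the combination (edgeR adjusted p = 0.000689). HOXB13, with 4, 2, 0 and 2 counts in DMSO and 0 in every treated library, was then called lower too (edgeR adjusted p = 0.0201 and 0.025), so that the count of lower genes in this list was 2 with no filter and 0 with it.

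The proteins that HOTTIP and the HOXA factors are known to work with were looked at by list. WDR5, which HOTTIP binds, fell in MI-503 from 151 ± 6.04 to 123 ± 5.62 CPM (log2 fold change −0.29, edgeR adjusted p = 7.22e-05) and further to 102 ± 6.26 CPM in the combination (−0.27 against MI-503, edgeR adjusted p = 0.000389). Of 7 genes of the WDR5 and COMPASS core with its Menin partners, 5 were called lower in MI-503 (median −0.15), 5 in the combination against DMSO (median −0.33) and 4 in the combination against MI-503 (median −0.14), and 0 were called higher. Of all tested genes, 29.3%, 32.8% and 23.8% were called lower in these comparisons. The count of 5 in MI-503 fell to 2 with upper-quartile scaling. ASH2L, 1 of the 5 (−0.12, edgeR adjusted p = 0.0347), lost its call in 13 alternatives, among them DESeq2 and RLE scaling. PSIP1, the chromatin reader that joins Menin and KMT2A, was not called in MI-503 (−0.13, edgeR adjusted p = 0.0839) and fell from 90.7 ± 3.89 to 55.4 ± 6.67 CPM when PR-957 was added (−0.70, edgeR adjusted p = 2.81e-07). KMT2A was not called in any comparison of all libraries, but without combination replicate 1 it was called lower in the combination, at −0.19 against DMSO (edgeR adjusted p = 0.00863) and with an edgeR adjusted p of 0.00885 against MI-503. Without combination replicate 4 both of these differences changed sign, to 0.01.

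The cofactors of the TALE family, which bind DNA beside HOX proteins, were mostly lower. Of 9 listed 5 were tested. Of all tested genes, 29.3% were called lower in MI-503, 32.8% in the combination against DMSO and 23.8% in the combination against MI-503. For higher calls these shares were 22%, 31.7% and 23.6%. Of the 5 cofactors tested, 4 were called lower and 1 higher in MI-503, with a median of −0.44. PBX3 fell from 79.0 ± 4.81 to 19.5 ± 1.49 CPM, MEIS1 from 53.7 ± 0.974 to 20.7 ± 1.69 CPM, MEIS2 from 54.8 ± 0.653 to 40.5 ± 1.42 CPM and PKNOX1 from 29.5 ± 1.88 to 24.8 ± 0.883 CPM. PBX2 was the gene called higher, at 1.30 and 2.16 CPM. In the combination against DMSO the counts were again 4 lower and 1 higher (median −0.89), and in the combination against MI-503 3 were lower (median −0.28). MEIS1 was not called in the latter (−0.25, edgeR adjusted p = 0.174) but fell by 0.63 without combination replicate 1 (edgeR adjusted p = 1.12e-06). PBX2 lost its call in the combination against DMSO without the same library (edgeR adjusted p = 0.110). The call was also lost with no filter, with DESeq2 and without replicate 3 of DMSO. The libraries of PBX3 overlapped in the combination against MI-503 (−0.26, edgeR adjusted p = 0.0232). That call was lost in 3 alternatives (adjusted p up to 0.0838).

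Genes reported as targets of HOXA9 or HOXA10 went in both directions. Of 10 listed 9 were tested. Of these, 2 were called lower and 4 higher in MI-503, and 5 lower and 4 higher in the combination against DMSO. In the combination against MI-503, 5 were lower and 2 higher. Of all tested genes, 29.3%, 32.8% and 23.8% were called lower and 22%, 31.7% and 23.6% higher in these comparisons. The cell cycle kinase CDK6 fell from 316 ± 15.4 to 181 ± 9.64 CPM and the receptor FLT3 from 324 ± 11.3 to 230.0 ± 2.56 CPM in MI-503 (log2 fold changes −0.80 and −0.49). CYBB, a subunit of the phagocyte oxidase known to be repressed by HOXA10, rose from 0.242 ± 0.0987 CPM in DMSO to 0.706 ± 0.0786 CPM in MI-503 (log2 fold change 1.52, edgeR adjusted p = 0.0113) and to 2.06 ± 1.04 CPM in the combination (1.44 against MI-503, edgeR adjusted p = 0.00203). LMO2, a transcriptional regulator of blood progenitors, was the other gene called higher in the combination against MI-503 (0.21, edgeR adjusted p = 0.00371), and without combination replicate 2 or 4 the count there was 1. The survival gene BCL2 and the transcription factor SOX4 were not called in MI-503 and fell when PR-957 was added, by 0.72 and 0.66 on the log2 scale (edgeR adjusted p = 5.4e-09 and 1.11e-05). MYB, a transcription factor of blood progenitors, was lower in the combination than in DMSO (−0.20, edgeR adjusted p = 0.0188), but without combination replicate 1 it was not called (−0.07, edgeR adjusted p = 0.185) and the count of 5 lower targets there was 4.

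Genes within 1000000 bases of the cluster on either side did not share a direction. Of 27 listed, 10 were tested, with 3 lower and 4 higher in MI-503 and 3 lower and 5 higher in the combination against DMSO. In the combination against MI-503, 3 were lower and 1 higher. The shares of all tested genes were 29.3%, 32.8% and 23.8% for lower calls and 22%, 31.7% and 23.6% for higher calls. The count of 4 was 2 when replicate 3 of DMSO, or replicate 1 or 3 of MI-503, was left out. SKAP2, the closest tested gene beyond the anterior end of the cluster, rose from 41.5 ± 2.85 to 47.9 ± 0.777 CPM in MI-503 (log2 fold change 0.21, edgeR adjusted p = 0.00219). HIBADH, the next tested gene beyond HOTTIP, fell from 25.8 ± 0.695 to 21.0 ± 0.921 CPM (−0.30, edgeR adjusted p = 0.000288) and to 17.1 ± 0.776 CPM in the combination. EVX1, the homeobox gene that directly follows HOTTIP, had 11 counts in all libraries together and was not tested.

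Genes whose profile over the 11 libraries was most like that of a member were found by the root mean square difference of centered log2 CPM among 10040 genes whose mean reached 5 CPM. HOXA10 lay closest to CNTRL (0.0491), ACSS1 (0.0624) and ANXA2R (0.0631), and HOXA13 to ACSS1 (0.0612), BUB3 (0.0627) and PIK3AP1 (0.0628). HOXA10 and HOXA13 were also close to each other, at 0.0741, which made HOXA13 the 10th closest gene to HOXA10 and HOXA10 the 12th closest to HOXA13. HOTTIP lay closest to RAD51AP1 (0.0749), NCAPH (0.0816) and RFC3 (0.0881). The member nearest to HOTTIP was HOXA10, at 0.242 and in place 1217, so that HOTTIP had no close companion among the members. HOXA11 lay closest to LRPPRC (0.0809), DNMT3B (0.0811) and AJUBA (0.0860), and HOXA11-AS to HNRNPU (0.0597), NUDCD3 (0.0606) and NFIX (0.0628). HOXA9 lay closest to ALKBH4 (0.0707), PYROXD1 (0.0761) and METTL16 (0.0785), with HOXA11 as its nearest member in place 2671. All these points share the same 11 libraries and their depth, and the values are a description without a test.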

How the data were processed

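RNA had been sequenced as read pairs from TruSeq libraries. The submitters' processing notes name Trimmomatic 0.39, STAR 2.7.10a and featureCounts 2.0.1, and the alignments were filtered before counting (criteria not given in the sources used here). Deposited values were raw counts of fragments per gene over exons of the hg38 RefSeq annotation, counted by the authors without regard to strand and without fragments that mapped to several places or genes. The authors' tables of differential expression, which hold log2 fold changes and p-values, were not used.

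Genes were filtered with filterByExpr (minimum count 10, minimum total 15), scaled by TMM factors (0.956 to 1.06) and fitted over all 11 libraries with 1 mean per group in edgeR 4.0.16 (R 4.3.3). The common dispersion was 0.00378, with 8 residual degrees of freedom. The quasi-likelihood test was two-sided with Benjamini-Hochberg adjustment over 14683 genes, and calls were made under an adjusted p of 0.05. CPM are on TMM-scaled totals. Ratios added 0.5 to each count. Alternatives were RLE and upper-quartile factors, no filter, a stricter filter, DESeq2 1.42.0, limma-voom (limma 3.58.1), a fit of the compared groups alone, a replicate block and leaving out each library.

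The members and gene lists were chosen with earlier results of these data known. Some list genes are not reported here, and the list counts leave them out. Named genes were the members, list genes called in a comparison or next to a member, and the 3 genes most like each member. HOXB9, HOXB13, HOXC9 and EVX1 and the uncalled list genes were named after their values were seen. Promoter sequences came from RefSeq (GRCh38.p14), where all 6 members were matched by symbol.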

Additional observations from a re-analysis of the deposited data

How the results depend on the processing

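The counts of members called (4, 6 and 4 lower and 0 higher) kept within 1.5 times of these values in all 114 alternatives, a wide margin for counts this small. In MI-503 against DMSO the count was 3 in place of 4 in the 13 alternatives where HOXA11-AS lost its call. Of 342 alternative fold changes of single members 328 kept direction and call and 0 reversed. The 13 that lost a call all concern HOXA11-AS in MI-503 against DMSO (adjusted p up to 0.124, and −0.14 with upper-quartile scaling), and the 1 that gained a call is HOXA11 in the combination against MI-503 without combination replicate 1. The cause was not tested. Same-numbered replicates did not pair: over 10 pairs of libraries the correlation of deviations from the group means ran from −0.102 to 0.144, with 1 pair over 0.1, and the replicate block called 4326 genes lower and 3304 higher in MI-503 against DMSO, beside 4307 and 3235 without the block. Upper-quartile scaling moved the share of higher calls in that comparison from 42.9% to 54.2% and the median of all genes from −0.03 to 0.03. Depth limits HOTTIP most, with 83 to 274 counts per library.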
